A study of Drosophila melanogaster with 15 samples.

Results

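Ilp2, FMRFa, 7B2 and ITP are genes of peptide hormone signalling in Drosophila melanogaster: 3 of them encode peptide precursors and the other, 7B2, encodes a protein of the granules in which such precursors are cut. They were taken by symbol, as the rows annotated to exactly 1 of these genes, and make up 4 of the 9894 named genes measured. Each had a single row on the array: Ilp2 (locus tag CG8167), FMRFa (CG2346), 7B2 (CG1168) and ITP (CG13586).

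Peptide hormones are made as long precursors, which enter dense-core secretory granules and are cut there by prohormone convertases before release. Ilp2 is an insulin-like peptide best known from the insulin-producing neurosecretory cells of the brain, from which it promotes growth and lowers circulating sugar. FMRFa encodes a precursor of several FMRFamide-related peptides, made in subsets of larval neurons that include neurosecretory cells of the ventral nerve cord. 7B2 is a helper protein of the convertase amontillado (the fly's PC2), which needs it to become active, and it is used as a sign of regulated peptide secretion. ITP, ion transport peptide, was first described in locusts as a hormone acting on the hindgut, and in flies it takes part in water balance. Its transcripts are spliced into an amidated hormone and longer ITP-like forms.

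The samples were 5 dissected tissues of Canton S larvae, a wild-type strain, at about 18 hours before pupariation: epidermis with attached muscle, salivary gland, wing disc, midgut and central nervous system. Each tissue was measured on 3 arrays of independent samples, 15 arrays in all, with the amplified tissue RNA in the Cy5 channel and RNA of identically staged whole animals in the Cy3 channel. Each ratio below is therefore tissue over whole animal, in log2 units, with the median of its array set to 0. An array held a value for between 7747 and 13505 rows. Precision is limited by having at most 3 arrays per tissue. The tissue always carried the same dye, so a gene-specific dye effect and a true difference from the whole animal cannot be told apart in the ratios themselves. Differences between tissues do not hold a dye effect that all arrays share. Fewer cells of a type and less RNA per cell cannot be told apart in these dissected samples.

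The nervous system samples carried signs of their tissue: among 8 neuron markers tested, 3 were higher there than in the mean of the other 4 tissues (elav by 2.86, nrv3 by 2.28 and brp by 0.68 on the log2 scale; limma, adjusted p = 4.94e-06, 7.17e-05 and 0.0282), and 5 did not pass, ChAT, nSyb, Csp, Gad1 and Snap25. The median ratio over the neuron list lay between 0.28 and 0.47 on the 3 nervous system arrays and between -0.15 and 0.36 on all others, so the list as a whole overlapped between tissues. Of 8 listed markers of the ring gland, an endocrine organ attached to the brain, 3 were measured and 1 was tested. That gene, Npc1a, was also higher in the nervous system than in the other 4 tissues, by 0.95 (limma adjusted p = 0.00149). Whether ring gland was in the samples cannot be told from 1 gene. Of all 8432 features, 12.0% were higher in the nervous system in this comparison and 10.2% lower. Markers of salivary gland (0 of 5), midgut (0 of 19) and muscle (0 of 11) were not higher in the nervous system, and 4, 10 and 7 of them were lower. For lists this short, 0 of 5 higher is near the share over all features. Among 3 wing disc patterning genes 1 was higher in the nervous system and 0 lower, with a median of 0.71. Among 4 glial markers nrv2 was higher, by 0.95 (limma adjusted p = 0.0315), and moody, loco and Gs2 did not pass, at 0.21, -0.41 and -0.44.

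Ilp2, FMRFa and 7B2 shared a pattern: all stood far above whole animal in the central nervous system, and on every array measured there they exceeded every array of every other tissue. ITP did not share it. Its ratio was above 0 on 14 of the 14 arrays that measured it, whatever the tissue, and no tissue differed from another past the test. A value lying higher on every nervous system array than on every other array was found for 4.7% of the 8432 features measured on at least 2 arrays of each tissue. A value above 0 on all measured arrays was found for 6.04% of them. FMRFa, with 1 wing disc array, is not among these features, and its pattern rests on 9 arrays.

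**Figure D1:**
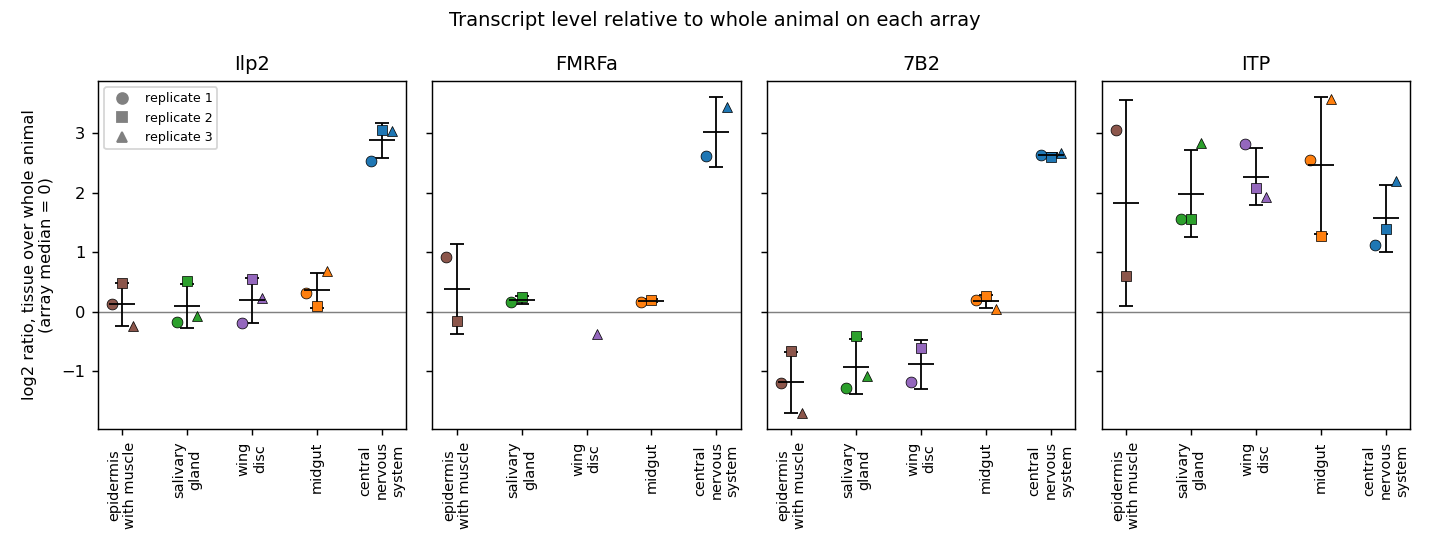
Each point is 1 array: the vertical axis gives the log2 ratio to whole animal with the array median at 0, the horizontal axis the 5 tissues, and the marker shape the replicate number. Long horizontal bars are means and whiskers are 1 SD, drawn where at least 2 arrays had a value. Ilp2, FMRFa and 7B2 separate the central nervous system from all other tissues, while ITP lies above 0 in all 5 with wide spread.

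Ilp2, the insulin-like hormone, was measured on all 15 arrays. In the central nervous system its log2 ratios were 2.53, 3.06 and 3.03. They were 0.13, 0.48 and -0.25 in epidermis with muscle and -0.17, 0.52 and -0.07 in salivary gland. They were -0.20, 0.55 and 0.23 in wing disc and 0.31, 0.09 and 0.68 in midgut. The lowest nervous system array thus stood well above the highest array elsewhere, a midgut sample at 0.68, and in epidermis, salivary gland and wing disc the 3 arrays lay on both sides of 0. The nervous system mean of 2.88 ± 0.297 (SD, n = 3) corresponds to 7.34 times the whole animal (adjusted p = 3e-08 by limma with Benjamini-Hochberg adjustment), a call that 19.8% of 10473 features shared in that direction. It was the 12th highest of those features.

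Against the mean of the other 4 tissues, Ilp2 was higher in the nervous system by 2.68 on the log2 scale (SE 0.221, 95% interval 2.22 to 3.15, limma adjusted p = 9.98e-07), and 12.0% of 8432 features were called higher in that comparison. Ranked by that difference, Ilp2 was number 20 of the features and number 15 of the 6624 with a gene name. Taken pair by pair, the nervous system exceeded epidermis 6.75-fold, salivary gland 6.89-fold, wing disc 6.42-fold and midgut 5.72-fold, with limma adjusted p-values from 4.24e-06 to 2.17e-05. Features lower than the nervous system made up 7.02%, 11.5%, 3.24% and 14.3% of those tested in the same 4 pairs.

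The order of Ilp2 levels was nervous system first, then midgut (mean 0.36), wing disc (0.19), epidermis (0.12) and salivary gland (0.09). Below the first place, neighbours did not differ beyond their spread: 0 of the 6 pairs without the nervous system passed the limma test (0 also at an unadjusted p under 0.05), their adjusted p-values ran from 0.641 to 0.973, and their largest difference was 0.27. Set against the other 4 tissues together, nervous system included, Ilp2 was lower in epidermis (-0.76, limma adjusted p = 0.0335), salivary gland (-0.80, 0.0196) and wing disc (-0.67, 0.0428), where 3.63%, 10.3% and 10.3% of features were lower. These calls were weak: 5, 3 and 12 of 22 alternative settings ended them, among them leaving out epidermis replicate 3 (-0.57, adjusted p = 0.239), salivary gland replicate 1 (-0.66, 0.138) and wing disc replicate 1 (-0.47, 0.256). None of these 4 tissues differed from the whole animal past the test, with adjusted p-values of 0.183 in midgut, 0.465 in wing disc, 0.694 in epidermis and 0.743 in salivary gland. Ilp1, Ilp3 and Ilp4, the insulin-like genes that adjoin Ilp2 in the annotation, are not analysed here.

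FMRFa, the FMRFamide precursor, was high in the nervous system too and had the fewest values of the 4 genes. It was measured on 9 of 15 arrays: nervous system replicates 1 and 3 gave 2.61 and 3.44. Epidermis replicates 1 and 2 gave 0.92 and -0.16, salivary gland replicates 1 and 2 gave 0.16 and 0.25, and midgut replicates 1 and 2 gave 0.16 and 0.20. Wing disc had a value on replicate 3 alone, -0.38. The nervous system values were both far above the highest value elsewhere, an epidermis array at 0.92.

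The nervous system mean of FMRFa was 3.02 ± 0.588 (SD, n = 2), or 8.13 times the whole animal (limma adjusted p = 1.68e-05), the 11th highest of 10473 features. It exceeded epidermis by 2.64 (SE 0.402, adjusted p = 0.00136), salivary gland by 2.82 (adjusted p = 0.000786) and midgut by 2.84 (adjusted p = 0.000447) on the log2 scale, which are 6.25-fold, 7.06-fold and 7.16-fold differences. Because wing disc had a single array, FMRFa was below the minimum of 2 arrays per tissue for a test against the mean of the other 4 tissues. With that minimum lowered to 1 array, so that the lone wing disc sample is assumed to vary like the others, it was higher by 2.93 (SE 0.326, limma adjusted p = 0.000252), and the F test over 5 tissues gave an adjusted p of 0.000696. Against the mean of epidermis, salivary gland and midgut, a contrast added after the data had been seen, it was higher by 2.77 (SE 0.328, limma adjusted p = 0.000173), and 14.9% of 8958 features were higher there. Among those 3 tissues no pair passed (0 of 3, also unadjusted; largest difference 0.20, adjusted p from 0.828 to 0.987). The 6 arrays without a value hold at least 1 of each tissue. The labels do not say why those cells are empty.

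ITP stood above the whole animal in every tissue. Its log2 ratios were 1.12, 1.38 and 2.20 in the nervous system and 1.56, 1.55 and 2.83 in salivary gland. They were 2.82, 2.08 and 1.92 in wing disc and 2.54, 1.27 and 3.57 in midgut. In epidermis, replicate 1 gave 3.05, replicate 2 gave 0.60 and replicate 3 had no value. The ranges of all 5 tissues overlapped, and the spread within epidermis (0.60 to 3.05) was nearly as wide as that over all 14 arrays.

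By means, ITP was highest in midgut at 2.46 ± 1.15 (SD, n = 3), followed by wing disc at 2.27 ± 0.48, salivary gland at 1.98 ± 0.734, epidermis at 1.82 ± 1.73 (n = 2) and the nervous system at 1.57 ± 0.564. These are 5.51, 4.83, 3.94, 3.53 and 2.97 times the whole animal, with limma adjusted p-values of 0.000734, 0.000786, 0.00303, 0.0214 and 0.00966. Features above the whole animal made up 13.7%, 18.4%, 16.9%, 12.1% and 19.8% of those tested in the same tissues. Epidermis had 2 arrays that differed widely. Without replicate 1 its ratio is the 0.60 of the 1 array left, whose spread is then taken from the other tissues (limma adjusted p = 0.611). The call in the nervous system was lost without replicate 3, at 1.25 (adjusted p = 0.0972).

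Being above the whole animal past the test in all 5 tissues was rare, at 1.51% of 8432 features (127 features). ITP's lowest tissue mean, 1.57, was the 6th highest lowest mean among those features. Between tissues ITP showed no difference past the test: the F test over 5 tissues gave an adjusted p of 0.713 (44.5% of features passed it), and 0 of 10 pairs passed (0 also unadjusted; limma adjusted p from 0.328 to 0.939). In those pairs the share of features past the test in either direction was 15.4% for nervous system and epidermis, 19.2% for nervous system and salivary gland, 5.53% for nervous system and wing disc, 26.8% for nervous system and midgut, 16.4% for epidermis and midgut, 14.8% for salivary gland and midgut, 24.7% for wing disc and midgut, 10.5% for epidermis and salivary gland, 11.1% for epidermis and wing disc and 18.3% for salivary gland and wing disc. The widest gap was the nervous system 0.89 below midgut, with a 95% interval from -2.21 to 0.42. For epidermis minus salivary gland the interval ran from -1.63 to 1.31, so a log2 difference of 1 in either direction lies within its error. In contrast to Ilp2, the nervous system minus the mean of the other 4 tissues was -0.57 for ITP (SE 0.493, 95% interval -1.62 to 0.49, limma adjusted p = 0.463). The row gives 1 value for a gene with 5 RefSeq transcripts, and which of them it detects is not given in the sources used here.

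7B2, the convertase helper, was the only one of the 4 genes with tissues both above and below the whole animal past the test. In the nervous system its log2 ratios were 2.64, 2.59 and 2.66. They were 0.20, 0.26 and 0.05 in midgut, close to the whole animal. They were negative on every array measured elsewhere: -1.20, -0.67 and -1.70 in epidermis, -1.29, -0.41 and -1.08 in salivary gland, and -1.18 and -0.61 in wing disc, where replicate 3 had no value. The midgut values thus lay between those of the nervous system and those of epidermis, salivary gland and wing disc. That order was seen in the values, and how many features share it was not counted.

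The nervous system mean of 7B2 was 2.63 ± 0.0382 (SD, n = 3), or 6.19 times the whole animal (limma adjusted p = 1.3e-07). That SD was small for this platform, since 96.3% of features had a larger one in the nervous system. Against the mean of the other 4 tissues 7B2 was higher by 3.34 (SE 0.229, 95% interval 2.85 to 3.83, adjusted p = 3.49e-07), the 6th largest difference of 8432 features. The nervous system exceeded epidermis 14.1-fold, salivary gland 11.8-fold, wing disc 11.5-fold and midgut 5.5-fold, with adjusted p-values from 3.2e-07 to 1.24e-05.

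Outside the nervous system 7B2 fell below the whole animal in epidermis at -1.19 ± 0.515 (n = 3), in salivary gland at -0.93 ± 0.462 (n = 3) and in wing disc at -0.89 ± 0.406 (n = 2), with limma adjusted p-values of 0.000461, 0.0028 and 0.00997. Features below the whole animal made up 12.5%, 18.6% and 20.6% of those tested in these tissues. Midgut, at 0.17 ± 0.107 (n = 3), did not differ from the whole animal past the test (adjusted p = 0.561). Midgut stood above all of these: the log2 difference from it was -1.36 in epidermis (limma adjusted p = 0.00303), -1.10 in salivary gland (adjusted p = 0.0152) and -1.06 in wing disc (adjusted p = 0.0229), where 8.45%, 8.55% and 12.6% of features were lower than midgut. The other 3 pairs, among epidermis, salivary gland and wing disc, did not pass.

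Single arrays bore on the calls outside the nervous system. Without wing disc replicate 1, which leaves the 1 array at -0.61 with its spread taken from the other tissues, the 7B2 ratio there did not pass (limma adjusted p = 0.223) and wing disc minus midgut was -0.78 (adjusted p = 0.204). Wing disc minus midgut was also no longer past the test without midgut replicate 1 (-1.05, adjusted p = 0.0598) or replicate 2 (-1.02, adjusted p = 0.0676). Salivary gland minus midgut was not past it without salivary gland replicate 1 (-0.92, adjusted p = 0.0805) or 3 (-1.02, 0.0528), or without midgut replicate 1 (-1.08, 0.0507) or 2 (-1.05, 0.059). The lead of midgut over epidermis passed with each array left out in turn.

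The midgut holds enteroendocrine cells, which also secrete peptides. Of their 4 tested markers, 3 were higher in midgut than in the mean of the other 4 tissues, as were 14.2% of features: CCHa1 by 1.01, CCHa2 by 0.99 and Mip by 0.60 (limma adjusted p = 0.00102, 0.00451 and 0.0309), and Dh31 differed by 0.06 (adjusted p = 0.879). The median ratio over the marker list lay between 0.36 and 0.81 on the midgut arrays and overlapped with the 0.29 to 0.63 on the salivary gland arrays, where 7B2 was low and 1 of the 4 markers was higher than in the other tissues. Their part in the midgut level of 7B2 was not tested, and neither was that of the neuron and ring gland markers in the nervous system levels.

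**Figure D2:**
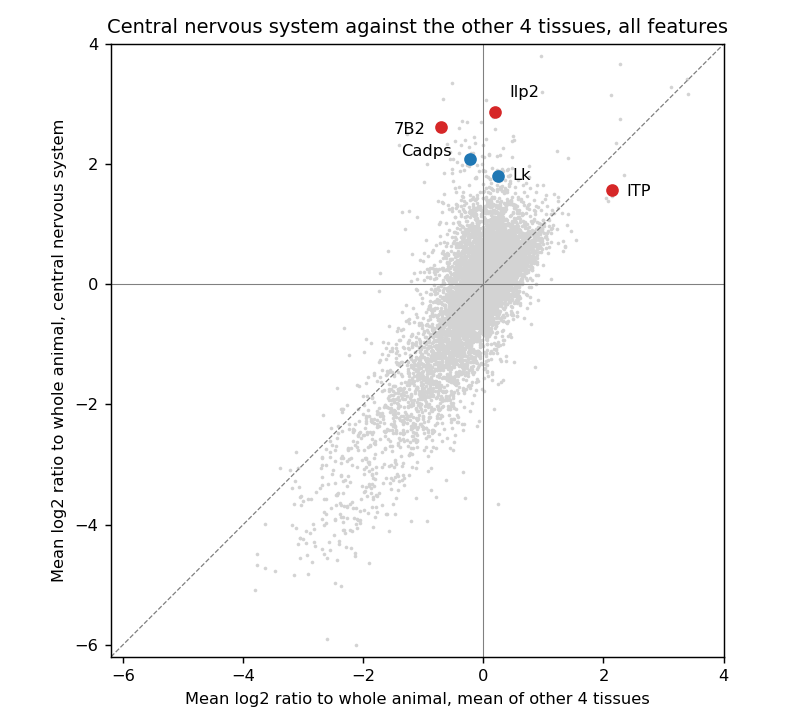
Each grey point is 1 of 8432 features: the horizontal axis is the mean log2 ratio to whole animal over the other 4 tissues and the vertical axis that in the central nervous system, with equal values on the dashed line. Ilp2 (0.19 and 2.88) and 7B2 (-0.71 and 2.63), in red, lie near the upper edge of the cloud, while ITP (2.13 and 1.57) lies far to the right and below the line. Cadps and Lk, in blue, are list genes described in the text.

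The number of rows with a value differed between arrays, and ratios moved with it in part. In 4 of 5 tissues ITP was lowest on the array with the most rows, and in wing disc it was highest there, at 2.82 on replicate 1 with 12703 rows. 7B2 was highest on the array with the most rows in 3 of 5 tissues: -0.67 on epidermis replicate 2 (13505 rows), -0.41 on salivary gland replicate 2 (13175 rows) and 0.26 on midgut replicate 2. Ilp2 was highest there in 2 tissues and lowest in 3. The same 3 arrays of epidermis, salivary gland and midgut had the narrowest ratios of all: their median absolute log2 ratio was 0.336, 0.345 and 0.332, while the other 12 arrays reached up to 0.603. The part of row number and array spread in these values was not tested.

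**Figure D3:**
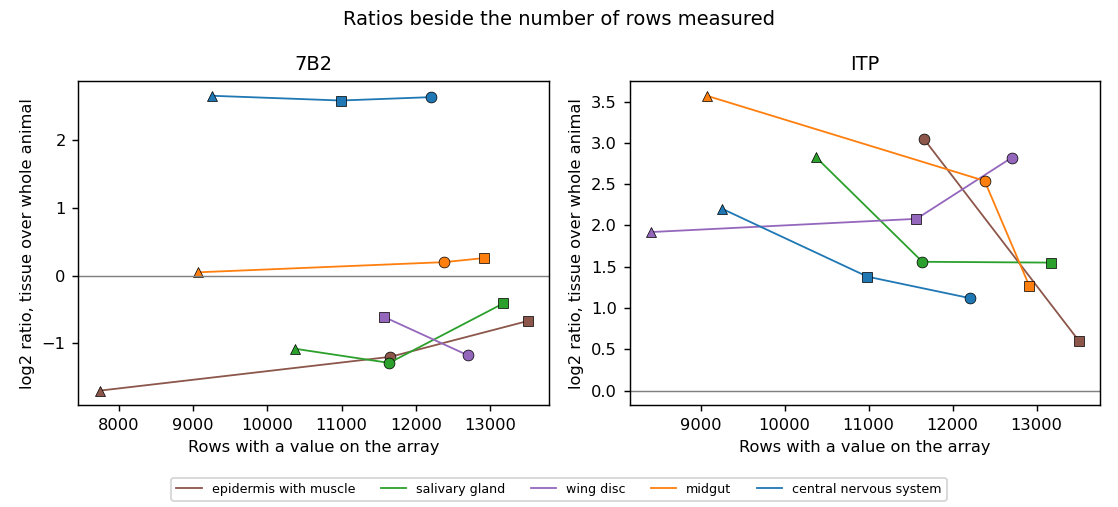
The vertical axes give the log2 ratio to whole animal of 7B2 and of ITP, the horizontal axes the number of rows with a value on each array, and lines join arrays of 1 tissue. Circles, squares and triangles are replicates 1, 2 and 3. The 7B2 ratios of the central nervous system stay within 2.59 and 2.66, while ITP declines toward the array with the most rows in every tissue except wing disc.

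ITP was also unusually variable between replicates. In epidermis 0.254% of features had a larger SD than its 1.73, and in midgut 0.414% had a larger one than its 1.15, against median SDs over features of 0.329 and 0.244. For Ilp2 the share of features with a larger SD was between 30.7% and 44.3% in every tissue.

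Across arrays, Ilp2 and 7B2 had a Pearson r of 0.955 over 14 shared arrays and 0.671 over the 11 outside the nervous system. Ilp2 and FMRFa had 0.937 over 9 arrays, of which 2 were nervous system, and -0.229 over the other 7. Ilp2 and ITP had -0.283 over 14. These values are a description: all points on an array share 1 hybridization and its centring, and the tissues fall into separate clusters.

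Among all genes with a single symbol, those with the ratio pattern most like Ilp2 were Cyp4g15, a cytochrome P450 (r = 0.98 over 12 shared arrays), CadN, the neuronal cadherin (0.971 over 11), and Ror, a receptor tyrosine kinase of the nervous system (0.967 over 12). For 7B2 they were CG13148 (0.966 over 12), CG4409 (0.959 over 14) and Gabat, an enzyme of GABA breakdown (0.958 over 14). For FMRFa, with its few arrays, they were CG1688 (0.989 over 6), Lk, the leucokinin precursor (0.983 over 8), and beat-VI (0.982 over 7). The arrays shared with CG1688 held 2 of the nervous system, and those shared with Lk held 1, so the r with Lk rests on a single high point. None of the 7 arrays shared with beat-VI was from the nervous system, so that likeness says nothing of the high values. The nervous system mean of beat-VI was -0.98, from no array that measured FMRFa, while that of FMRFa was 3.02. For ITP they were CG9294 (0.933 over 11), CG2861 (0.919 over 11) and Cpr66Cb, a cuticle protein gene (0.91 over 10). The comparisons covered between 7513 and 8437 genes for each member and are a description without a test.

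Of 49 listed neuropeptide and peptide hormone genes, 28 were found and 16 tested in the nervous system against the other 4 tissues: 4 were higher, 0 lower and 12 not past the test, with a median difference of -0.04 against -0.07 over all features. The share of all features called higher in this comparison was 12.0%. Without Ilp2 and ITP, 3 of 14 were higher. The others called were Lk by 1.56 (SE 0.247, limma adjusted p = 0.000667), Nplp1, a neuropeptide-like precursor, by 1.27 (SE 0.258, adjusted p = 0.0025) and Capa, precursor of diuresis-regulating peptides, by 1.09 (SE 0.27, adjusted p = 0.0129). Capa was not a gene of the nervous system alone, since its means were 0.71 there, 0.67 in midgut, 0.17 in salivary gland, -1.17 in wing disc and -1.20 in epidermis. Among those not past the test, Nplp4 differed by -0.80 (adjusted p = 0.0607), Akh, the adipokinetic hormone of the corpora cardiaca, by 0.47 (0.137) and Mip by -0.37 (0.274).

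Of 19 listed genes of peptide processing and secretory granules, 14 were found and 11 tested, and 3 were higher in the nervous system, 0 lower and 8 not past the test, with a median of -0.15, beside 12.0% of all features called higher. Without 7B2, 2 of 10 were higher. Beside 7B2 these were Cadps, which primes dense-core granules for release, by 2.31 (SE 0.223, limma adjusted p = 5.68e-06), and Vmat, which loads monoamines into vesicles, by 1.43 (SE 0.347, adjusted p = 0.0101). Cadps resembled Ilp2 in having a ratio of 2.08 in the nervous system and means from -0.34 to -0.07 elsewhere. The amidating lyase Pal1 differed by -0.70 (adjusted p = 0.146), the furin convertase Fur2 by 0.63 (0.0677), the granule membrane protein IA-2 by 0.45 (0.211) and the glutaminyl cyclase isoQC by -0.44 (0.0845). The partner of 7B2, amon, had too few values for a test between all tissues, and its mean ratios, each from 1 or 2 arrays, were all between -0.39 and -0.10.

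Of 38 neuropeptide receptor genes, 20 were found and 10 tested: 0 were higher in the nervous system (0 also unadjusted), 1 was lower and 9 did not pass, with a median of -0.11. For a list of 10 these counts are near the shares over all features, 12.0% higher and 10.2% lower. The lower one was Pdfr, the receptor of pigment-dispersing factor, at -0.73 (SE 0.21, limma adjusted p = 0.0292), where 10.2% of all features were lower. Lgr3 differed by 0.41, Dh44-R2 by 0.38, CCHa2-R by -0.34 and TkR99D by -0.28, none past the test.

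Of 28 genes of the insulin pathway, 14 were found and 12 tested, of which 2 were higher in the nervous system, 0 lower and 10 not past the test, with a median of 0.20. That share is near the 12.0% of all features called higher, and without Ilp2 it was 1 of 11. The gene called beside Ilp2 was Sdr, a secreted decoy of the insulin receptor, by 0.78 (SE 0.237, limma adjusted p = 0.0337). ImpL2, which binds insulin-like peptides, differed by -0.61 (adjusted p = 0.0652) and had its highest mean in epidermis, at 1.73. The TORC2 subunit rictor differed by 0.53 (0.0657), the kinase Pdk1 by -0.42 (0.334) and the insulin receptor substrate chico by 0.40 (0.171). Ilp8, the disc-derived relaxin-like peptide that delays metamorphosis, had means of 0.73 in wing disc and 0.10 to 0.34 elsewhere, with no difference between tissues past the F test (limma adjusted p = 0.331).

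**Figure D4:**
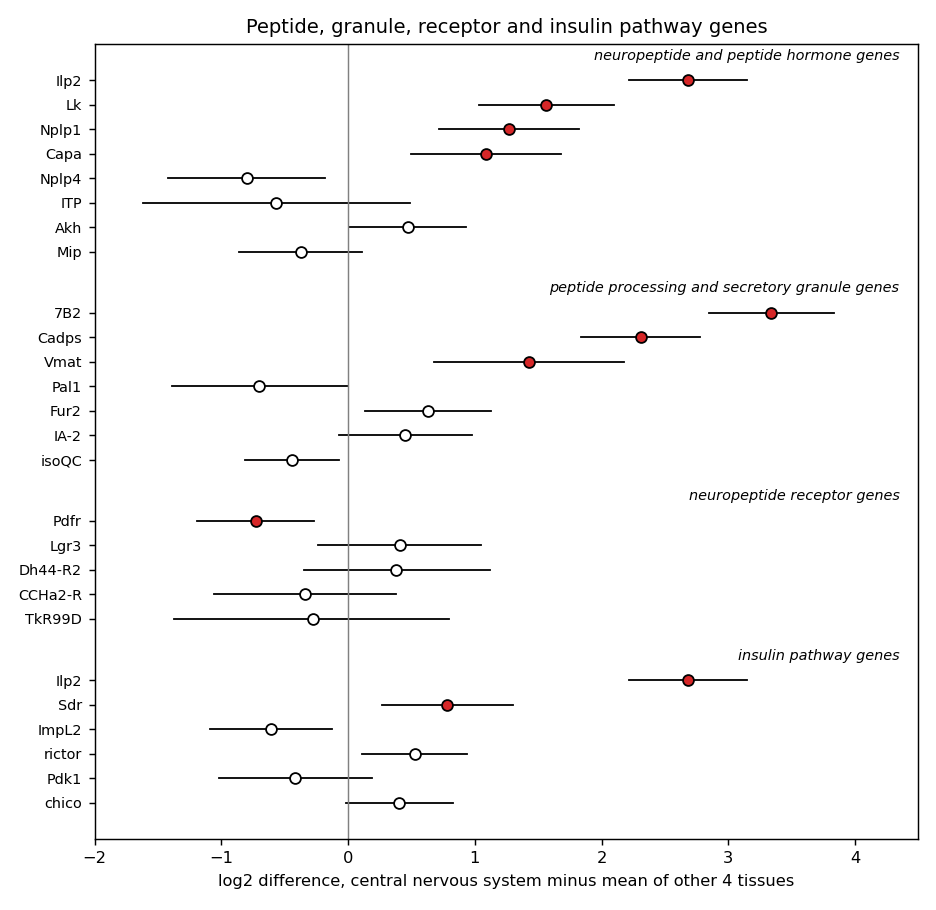
The horizontal axis gives the log2 difference between the central nervous system and the mean of the other 4 tissues, with 95% intervals, for the genes of each list that passed the test (red) and up to 4 per list that did not (open). Ilp2, 7B2 and Cadps have the largest differences, all above 2, and Pdfr is the only red point below 0.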

How the data were processed

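Groups and replicate numbers came from the sample titles. The authors deposited 1 column of log2 ratios per array. The scale was read from the values: 606 to 804 value pairs on an array were exactly 1 apart, and 0 to 2 were the natural logarithm of 2 apart, to the precision of the file. Per the labels' protocols, RNA was amplified by in vitro transcription and no dyes were swapped. Scanner, background correction, normalization and whether the reference came from a single pool: not given in the sources used here.

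Of 20000 rows, 14051 had values and 10817 of these had 1 gene, of which 10813 matched a current gene record. Averaging the rows of each gene left 13128 features. Arrays were centred on their medians (-0.137 to 0.0816 as deposited). limma 3.58.1 (R 4.3.3) fitted 1 mean per tissue over 15 arrays with empirical Bayes variances. A feature was tested where at least 2 arrays had a value in each tissue needed, and an adjusted p (Benjamini-Hochberg over all features of a comparison) under 0.05 passed. On simulated data for the nervous system against the other 4 tissues (8432 features), 47 of 100 changes of log2 1 and 99 of 100 of log2 2 were recovered.

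The members, lists and tests were chosen with earlier results of these data known. From each list the text names genes past the test in the nervous system and up to 4 others with the largest difference; for likeness, the 3 genes with the highest r over at least 10 shared arrays (6 for FMRFa). Markers are named by their lists. Alternatives changed centring, scale, filter, prior, replicate block and each array. Tables used python 3.11.15, pandas 2.3.3 and numpy 2.4.6, and plots matplotlib 3.10.9.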

Additional observations from a re-analysis of the deposited data

Results flagged for a closer look

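7B2 moved in opposite directions against the whole animal in different tissues, with the difference itself past the test. Its ratio in the central nervous system exceeded that in epidermis with muscle by 3.82, that in salivary gland by 3.56 and that in wing disc by 3.52 on the log2 scale (limma adjusted p = 3.2e-07, 9.33e-07 and 9.14e-06), and it was above 0 on all 3 nervous system arrays and below 0 on all 8 measured arrays of those 3 tissues. How many features share these signs was not counted. In the nervous system 19.8% of features were above the whole animal past the test. Features below it past the test made up 12.5% in epidermis, 18.6% in salivary gland and 20.6% in wing disc. Wing disc had 2 measured arrays, and without replicate 1 its ratio to whole animal was -0.61.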

How the results depend on the processing

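Of 1143 alternative values of a difference or ratio of the 4 genes, 1095 kept their direction and their side of the threshold, 33 kept their direction but no longer passed, and 15 changed sign. In the nervous system against the other 4 tissues, 7B2 ranged over 3.24 to 3.41, Ilp2 over 2.51 to 2.86 and ITP over -0.88 to -0.26 (limma adjusted p up to 1.44e-05 and 4.2e-05, and from 0.176 to 0.764), and the differences of FMRFa from epidermis, salivary gland and midgut passed in every alternative that gave a value (adjusted p up to 0.0201, 0.0116 and 0.00784). All 15 sign changes were of values that did not pass the test. For ITP against the other 4 tissues, epidermis gave 0.03 with the replicate block and -1.47 to 0.98 with 1 array left out, salivary gland 0.04 when centred on features of all 15 arrays and -0.48 to 0.25 with 1 array left out, and midgut -0.00 to 1.15. ITP minus its nervous system level was -0.97 to 1.48 in epidermis and -0.01 to 0.73 in salivary gland with 1 array left out. Against whole animal such ranges were -0.16 to 0.92 for FMRFa in epidermis, -0.06 to 0.31 for Ilp2 in epidermis and -0.12 to 0.22 for Ilp2 in salivary gland.

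Calls ended by a setting were these. Below the other 4 tissues, Ilp2 gave -0.94 to -0.57 in epidermis, -1.01 to -0.66 in salivary gland and -0.85 to -0.47 in wing disc with 1 array left out, and was not past the test with arrays scaled to equal spread (-0.70, -0.71 and -0.65) nor, in wing disc, with values as deposited (-0.63), centred on features of all arrays (-0.61) or with 1 array per tissue asked for (-0.67). 7B2 in wing disc gave -0.92 with scaled arrays and -1.35 to -0.78 with 1 array left out against the other 4 tissues, and -1.18 to -0.61 against whole animal. Minus midgut it was -1.36 to -0.92 in salivary gland and -1.35 to -0.78 in wing disc, and -1.02 in the latter with scaled arrays. ITP against whole animal was 0.60 to 3.05 in epidermis and 1.25 to 1.79 in the nervous system.

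Over these alternatives 7B2 had 5 to 7 of its 10 pairs of tissues past the test. The number of features past the test in the nervous system was 1866, 936 with a difference of at least log2 1 asked for, and 1138 to 2049 with 1 array left out (1138 without nervous system replicate 2, 1159 without replicate 3). In the other tissues it fell from 1521 to 758 in salivary gland, from 1669 to 860 in wing disc and from 2506 to 1322 in midgut with that minimum, and ranged over 599 to 1097 in epidermis, 814 to 1625 in salivary gland and 1073 to 1809 in wing disc with 1 array left out. With the replicate number as a block it was 1880 in the nervous system, with 7B2 at 3.36, Ilp2 at 2.68, ITP at -0.64 and FMRFa against 3 tissues at 2.20 (limma adjusted p = 4.12e-07, 2.18e-06, 0.286 and 0.00548). The numbers share no stated source, and 11 of 30 same-numbered pairs of arrays correlated above 0.1 (range -0.487 to 0.352, 9 of 15 arrays best with their own number). The cause of these changes was not tested. Fitting rows of a gene apart was not run, since each of the 4 genes has 1 row, and asking for 3 arrays per tissue gave FMRFa no value.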

Other observations

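Some peptide genes were higher in tissues other than the nervous system, and others had too few values for a test between all tissues. They are named here after their values were seen. In midgut 4 of 16 tested peptide genes were higher than in the other 4 tissues, against 14.2% of 8432 features, and 0 were lower: CCHa1 by 1.01, CCHa2 by 0.99, Capa by 1.04 and Mip by 0.60 (limma adjusted p = 0.00102, 0.00451, 0.0114 and 0.0309). Capa was also higher in the nervous system, and CCHa2 in salivary gland, by 0.88 (limma adjusted p = 0.0171). In salivary gland 2 of 11 tested genes of peptide processing and secretory granules were higher and 2 lower. There 1521 of 8432 features were called in either direction. The higher ones were the amidating enzymes Phm and Pal1, by 0.78 and 1.03 (limma adjusted p = 0.00386 and 0.0391), and the lower ones 7B2 and isoQC. The glutaminyl cyclase isoQC was higher in midgut by 1.21 (adjusted p = 6.03e-05) and lower in salivary gland, at -0.84 (adjusted p = 0.00326). In wing disc 1 of 16 tested peptide genes was higher and 5 were lower, beside 10.3% of features lower and 1669 of 8432 called in either direction. The higher one was ETH, the ecdysis-triggering hormone, by 0.63 (limma adjusted p = 0.0428). Its F test over 5 tissues did not pass (adjusted p = 0.146). The lower ones were Ilp2, CCHa2, Capa, Lk and Proc. The mean they were set against includes the nervous system, where Ilp2, Capa and Lk were higher. The wing disc mean of Ilp2, 0.19, was above its means in epidermis, 0.12, and salivary gland, 0.09. Its call in wing disc was ended by 12 of 22 alternative settings.

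Against the whole animal in the nervous system, where 19.8% of features were higher, Pdf, the circadian neuropeptide, stood at 1.91 (SE 0.261, n = 2, limma adjusted p = 0.000234), Eh, the eclosion hormone, at 1.30 (SE 0.275, n = 2, adjusted p = 0.00606), Crz, corazonin, at 1.17 (SE 0.147, n = 3, adjusted p = 3.5e-05) and Trissin at 0.68 (SE 0.206, n = 3, adjusted p = 0.026). Pdf was positive in the other tissues too, with means from 0.59 to 0.90. Their values in other tissues were too few for a test against all 4. Eh had no value in epidermis and a single wing disc array at 1.69, above its nervous system mean. Orcokinin had means of at least 0.71 in all 5 tissues (1 array in wing disc), with 0.92 in the nervous system (limma adjusted p = 0.0022). Ilp2, Akh, CNMa, Ilp8, NPF and Pdf also had positive means in all 5, some from 1 array. So did several receptor genes, among them PK1-R at 0.74 to 0.89 and Dh44-R2 at 0.72 to 1.23. Positive means in every tissue were thus not particular to ITP.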
